A study of Mus musculus with 5 samples.

Results

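Arg1, Plaur, F3, Saa3, Sod2 and Xdh encode enzymes and surface or secreted proteins that macrophages can produce in larger amounts when they are activated. The 6 genes were taken by their symbol in the platform annotation and were read by 9 cDNA probes, 4 of them for Sod2 and 1 for each of the others. All 9 probes had a value on all 5 arrays, so all 6 genes are among the 8452 named genes that did. The cells were macrophages grown from bone marrow of C3H/HeJ mice with human CSF-1, a cytokine that drives monocytes to become macrophages. Cells were either left without LPS (0 h) or given LPS of S. minnesota at 10 µg per ml for 0.5, 2, 7 or 21 h. Each time was measured on 1 two-colour array, with RNA of whole C57BL6/J embryos of day 17.5 in the other channel, so that the reference came from another strain. No time had a second array. No difference was therefore tested, and each fold below is a description of these 5 arrays.

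Macrophages sense LPS through the receptor TLR4, which switches on transcription factors of the NF-kB and AP-1 families. C3H/HeJ mice carry a point mutation of Tlr4 that leaves their cells hyporesponsive to LPS. In responsive macrophages the genes described here act in separate programmes: clotting and clot breakdown at the cell surface, arginine use, the acute phase, defence against superoxide, and purine breakdown.

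Values are log ratios of macrophage over embryo, centred on the median of all genes of the array. Neither the log base nor the direction is stated in the sources used here. Both were read from the globins, of which embryo blood is rich: the deposited median of 55 globin probes was -1.46 at 0 h, 28.5-fold more in embryo on base 10 and 2.74-fold on base 2. Base 10 was used throughout. A difference counted as past 2-fold at 0.301 units. On the 0.5 h array the globin median was -0.038, and this array correlated with the 0 h array at 0.49 across probes, against 0.77 to 0.88 for the later arrays. Probes of one gene disagreed in their difference from 0 h by a pooled SD of 0.48 on the 0.5 h array and of 0.16 to 0.19 on the later ones. This spread is the only error these arrays give, and it holds no variation between cultures or hybridisations. Of 8 measured macrophage markers 6 lay above 0 at 0 h, with a median of 0.83. The exceptions were Cd68 at -0.16 and Tyrobp at -0.055.

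The 6 genes did not move as a group. Against 0 h, Xdh was past 2-fold higher on the 2, 7 and 21 h arrays, and Plaur past 2-fold lower on the 7 and 21 h arrays. Saa3 was past 2-fold lower at 0.5, 2 and 21 h, as was F3 at 0.5 and 2 h, and Arg1 was past 2-fold higher at 0.5 and 7 h. All these calls of Saa3, F3 and Arg1 fell within 2-fold under some other setting. Arg1 at 0.5 h did so only with values read as log2, at 1.38-fold. Against the 0.5 h array F3 at 2 h, Arg1 at 7 h and Saa3 at 21 h changed sign. Plaur at 0.5 h was past 2-fold higher but turned lower under quantile normalization and trend removal. Sod2, as the mean of its 4 probes, was past 2-fold lower at 0.5 h and within 2-fold later, and these calls changed with the probes and the scaling used. The median difference of the 6 on the 2, 7 and 21 h arrays was -0.037, 0.073 and -0.17, beside -0.012, 0.022 and 0.0030 for all genes.

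**Figure D1:**
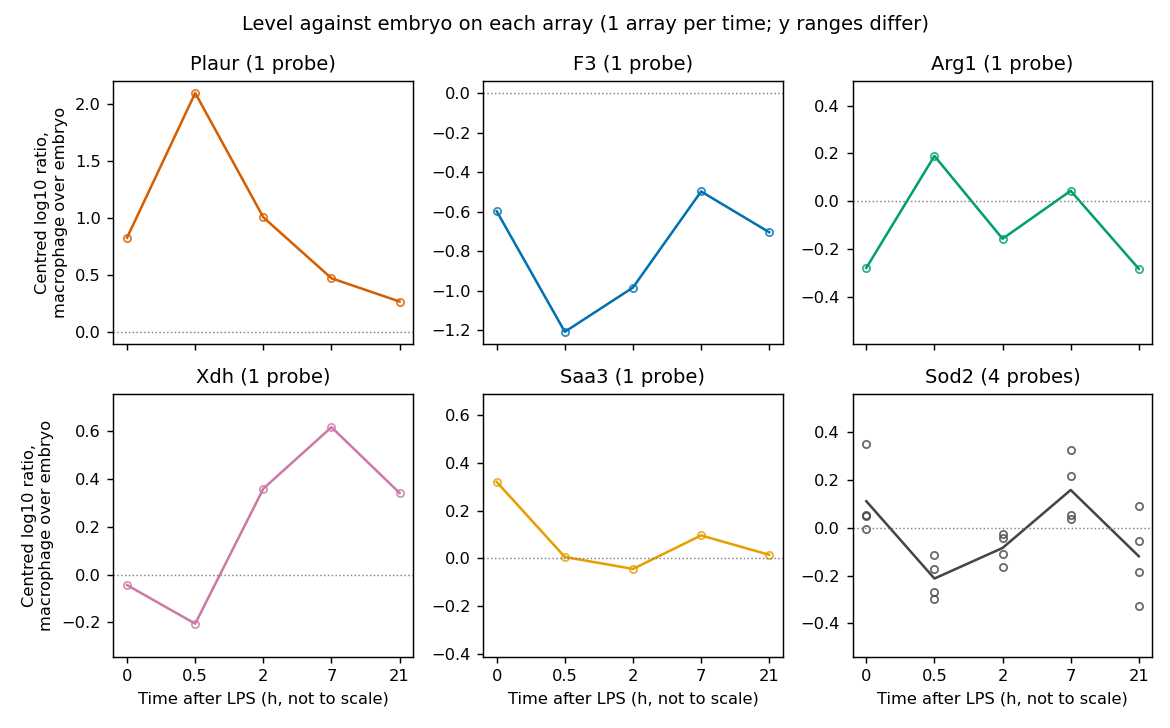
Centred log10 ratio of macrophage over embryo (y axis) on the arrays of 0, 0.5, 2, 7 and 21 h after LPS (x axis, equally spaced), 1 panel per gene. Circles are single probes and lines join the mean of a gene's probes; each time is 1 array and y ranges differ between panels. Xdh was highest at 7 h (0.62), Plaur read 0.83 at 0 h and 0.27 at 21 h, and the 4 Sod2 probes were spread most at 21 h, with an SD of 0.18.

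Plaur encodes the urokinase receptor, a lipid-anchored surface protein that gathers urokinase and so places plasmin formation on the cell surface. On the arrays of 0, 0.5, 2, 7 and 21 h its centred log ratio was 0.83, 2.10, 1.0, 0.47 and 0.27. It was above embryo on all 5 arrays, and from 0.5 h on each array read lower than the one before. Against 0 h the ratio at 7 h differed by -0.36, 2.27-fold lower, and at 21 h by -0.56, 3.64-fold lower. Across all genes, 0.816% differed by as much or more in that direction at each of these times. Against the pooled probe SD the differences were 2.25 and 2.96 times as large. At 0.5 h Plaur was 1.27 higher, but the difference was -0.13 after quantile normalization and -1.10 once a lowess trend against the mean ratio was taken out. The 2 h difference, 0.18, likewise became -0.19 and -0.096 under these settings and -0.031 with arrays scaled to one median absolute deviation. Counted from the top of the 8452 ratios it stood in place 45 on the 0 h array, 70 on the 0.5 h array and 991 on the 21 h array. The 92 probes with numbers up to 50 away from that of Plaur had a median difference of 0.038 at 21 h, and 2 of them read as low as Plaur. Past 2-fold in either direction were 23 of the 92, where 4.33% of all genes were past it higher and 4.69% lower.

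F3 encodes tissue factor, the membrane receptor that starts coagulation by binding factor VII. F3 gave centred log ratios of -0.60, -1.21, -0.98, -0.50 and -0.70 in the order of the times. It lay more than 2-fold below embryo on all 5 arrays, lowest on the 0.5 h and 2 h arrays. F3 differed from 0 h by -0.61 at 0.5 h, and by -0.39 at 2 h, which is 2.43-fold lower. It was 0.10 at 7 h and -0.11 at 21 h, within the probe SD at both times. The 2 h value kept its sign but not its size when ratios were brought to one spread: it was -0.16 after quantile normalization, -0.18 when arrays were scaled to one median absolute deviation and -0.21 without the trend. At 0.5 h the scaled value was -0.066. Against the 0.5 h array in place of 0 h F3 was higher on all 3 later arrays, by 0.22, 0.71 and 0.50. Over genes, ratios had an SD of 0.54 at 0.5 h and 0.36 at 2 h against 0.27 at 0 h, so F3 was lowest on the 2 arrays with the widest ratios, and the part of that width in the result was not tested. Of the 97 probes numbered near F3, 0 read as low as it at 0.5 h and 1 at 2 h.

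Bases before the start sites of F3, Plaur, Sod2 and Saa3 are shown because 2 genes with unlike courses, Plaur and F3, both carry AP-1 letters there. Arg1 and Xdh are not shown. Sequences and start sites are those of RefSeq on GRCm38.p6, each is written 5′ to 3′ on the strand of the gene, and capitals mark matches to the motifs searched on both strands. The motifs were TGANTCA for AP-1, GGGNNNNNCC for the outer letters of an NF-kB site and TTNNGNAA for C/EBP, where matches of one motif may overlap. For F3 the 250 bases before the start are given, chr3:121723287-121723536 on the plus strand, and for Sod2 the last 150, chr17:13007689-13007838 on the plus strand. For Plaur and Saa3 the annotated gene extends beyond the start used, and 30 bases round one match are given: chr7:24462407-24462436 on the plus strand and chr7:46715757-46715786 on the minus strand.
F3: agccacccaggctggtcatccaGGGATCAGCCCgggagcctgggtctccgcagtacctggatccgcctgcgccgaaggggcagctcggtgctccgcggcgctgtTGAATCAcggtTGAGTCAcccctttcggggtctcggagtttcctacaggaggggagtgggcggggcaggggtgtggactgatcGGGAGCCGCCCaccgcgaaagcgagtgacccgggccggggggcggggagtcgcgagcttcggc
Plaur: ctggagcTGACTCActcTTTAGCAAacagt
Sod2: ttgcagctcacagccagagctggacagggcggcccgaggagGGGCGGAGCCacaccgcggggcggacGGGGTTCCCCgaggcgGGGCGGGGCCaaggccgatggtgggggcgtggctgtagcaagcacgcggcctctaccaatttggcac
Saa3: ggtaagtgggaTTATGCAAgatcaaacagg

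F3 held 2 AP-1 matches, TGAATCA from -146 to -140 and TGAGTCA from -135 to -129, counted from the start site. Plaur held 1, TGACTCA from -69 to -63. Of 32851 windows of 250 bases before start sites in the table, 6.75% held an AP-1 match. The other motifs were common: 45.8% of windows held the NF-kB letters and 36.8% the C/EBP letters. In the 250 bases F3 held 4 NF-kB matches, Sod2 3 and Plaur 2, where those of F3 and Plaur overlap between strands. The Sod2 match GGGGTTCCCC fits the motif on both strands but was counted on the plus strand alone, so F3 and Sod2 were not counted alike. The Plaur NF-kB matches, from -46 to -37 and from -45 to -36, lie outside the bases shown. Saa3 held 4 C/EBP matches and Plaur 1. A match is a run of letters and no measure of binding.

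Xdh encodes xanthine dehydrogenase, which turns hypoxanthine into xanthine and then uric acid and can release superoxide in its oxidase form. For Xdh the 5 arrays read, in order of time, -0.044, -0.21, 0.36, 0.62 and 0.34. The arrays thus fell into 0 and 0.5 h, below embryo, and 2, 7 and 21 h, above it. Xdh differed from 0 h by 0.40, 0.66 and 0.39 on these later arrays, or 2.53-fold, 4.58-fold and 2.43-fold higher. Read as base 2, the 7 h difference would be 1.58-fold. At 7 h it was 4.18 times the pooled probe SD, and 51 of 8452 genes, Xdh included, differed upwards by as much. At the 3 later times Xdh was past 2-fold under each of 10 other ways of centring, scaling, joining probes, filtering or choosing the baseline. Values were 0.33 to 0.57 for 2 h, 0.57 to 0.82 for 7 h and 0.37 to 0.55 for 21 h. With 1 probe, joining probes and filtering could move Xdh only through the array median, so these settings are no separate check. A running median over probe numbers, among the 10, was added after seeing the data. Xdh was read by 1 probe, whose 95 neighbours by number had a median of 0.13 at 7 h and -0.094 at 21 h. Of these neighbours 9 read as high as Xdh at 2 h, 2 at 7 h and 0 at 21 h. Past 2-fold in either direction were 13, 18 and 21 of the 95 at these times. Of all genes 4.33% were past it higher and 4.69% lower at 21 h. The 364 probes numbered nearest Xdh correlated with 0 h at 0.55 at 21 h, against 0.77 for the whole array.

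Arg1 encodes the cytosolic arginase, which splits arginine into ornithine and urea, marks alternatively activated macrophages and is abundant in liver. Its ratios over the 5 times were -0.28, 0.19, -0.16, 0.044 and -0.28. It was lowest at 0 and 21 h, and those 2 arrays differed by -0.0040. On the 3 arrays between them Arg1 differed from 0 h by 0.47, 0.12 and 0.32, the last, at 7 h, 2.10-fold higher. At 7 h it was 0.23, under 2-fold, with a running median over probe numbers removed, 0.3009 without centring, also under 2-fold, and -0.15 against the 0.5 h array. Of the 90 probes numbered near Arg1, 8 read as high as it at 7 h and 35 at 0.5 h. On the 0.5 h array 64 of the 90 were past 2-fold in either direction, where 19.9% of all genes were past it higher and 10.6% lower. The Arg1 difference on that array was 0.98 times the pooled probe SD, and 1172 genes were as high or higher, 13.9% of all. Markers of hepatocytes, cells rich in Arg1, moved with that array: the summed log ratio of 8 measured markers was -3.60 at 0.5 h and between -8.79 and -6.42 on the other 4 arrays. Of the 8, 4 were past 2-fold higher at 0.5 h and 1, Afp, at 7 h, while 2 were past it lower at 2 h. Their part in the Arg1 values was not tested.

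Saa3 encodes a serum amyloid A protein of the acute phase that is made largely outside the liver, by macrophages among other cells. From the first time to the last, Saa3 read 0.32, 0.0064, -0.044, 0.097 and 0.015. The 0 h array was thus 2.09-fold above embryo and the other 4 within 2-fold of it. Every later array read below 0 h, by -0.31, -0.36, -0.22 and -0.31 in turn, and the last lay just past 2-fold. Because these differences share the 0 h array, they are 4 readings against 1 value and not 4 separate decreases. Against the 0.5 h array the difference was -0.050 at 2 h and 0.0090 at 21 h, and against the mean of the 0 and 0.5 h arrays it was within 2-fold at both times, at -0.21 and -0.15. Saa3 at 0.5 h was within 2-fold without centring, at -0.27, and at 7 h past it under quantile normalization, at -0.35. Of the 89 probes numbered near Saa3, 9 read as low as it at 0.5 h and 4 at 2 h. At 7 h none did, and at 21 h 6 did.

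Sod2 encodes the manganese superoxide dismutase of mitochondria, which turns superoxide into hydrogen peroxide. Its ratios at the 5 times were 0.11 ± 0.16, -0.21 ± 0.086, -0.084 ± 0.064, 0.16 ± 0.14 and -0.12 ± 0.18 (SD between the 4 probes of 1 array). The 4 probes read -0.30 to -0.11 at 0.5 h and -0.16 to -0.025 at 2 h, where the lowest at 0 h was -0.0056. The gap at either time was under the pooled SD between probes of a gene in their ratios, 0.24 at 0 h, 0.52 at 0.5 h and 0.31 at 2 h. At 7 h and 21 h the ranges overlapped that of 0 h. Probes of 1 array are no replicates of a time, and how many other genes have probes that part in this way was not counted. Against 0 h all 4 probes were lower at 0.5 h, by -0.62 to -0.11, and at 2 h, by -0.37 to -0.092. At 21 h 3 were lower and 1 higher, and at 7 h 1 was lower and 3 higher. Their mean differences were -0.32 ± 0.22, -0.20 ± 0.13, 0.047 ± 0.083 and -0.23 ± 0.19 in order of time. The 0.5 h mean was past 2-fold, but 6 other settings put it within: no centring (-0.28), quantile normalization (-0.299), scaling (-0.23), the median probe (-0.27), trend removal (-0.28) and leaving out the probe of the greatest difference (-0.23). With the probe of highest ratio in place of the mean, Sod2 was past 2-fold lower at 2 h (-0.38) and 21 h (-0.40) as well, and at 21 h also without the one probe that was higher (-0.32). Against the 0.5 h array it was 0.37 higher at 7 h. The probe of highest ratio read 0.35 at 0 h, where the other 3 read -0.0056 to 0.052.

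Of the 6 genes, 2 were past 2-fold higher and 3 lower at 0.5 h, against 19.9% and 10.6% of the 8452. At 2 h, 1 was higher and 2 lower, beside 4.24% and 2.58% of all genes. At 7 h, 2 were higher and 1 lower, beside 3.35% and 1.4%. At 21 h, 1 was higher and 2 lower, beside 4.33% and 4.69%. The genes were chosen with earlier results of these data known, so that these shares are no measure of how such genes behave in general. Against embryo at 0 h, 2 genes, Plaur and Saa3, were past 2-fold above and 1, F3, below, where 8.99% of all genes were above and 8.9% below.

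**Figure D2:**
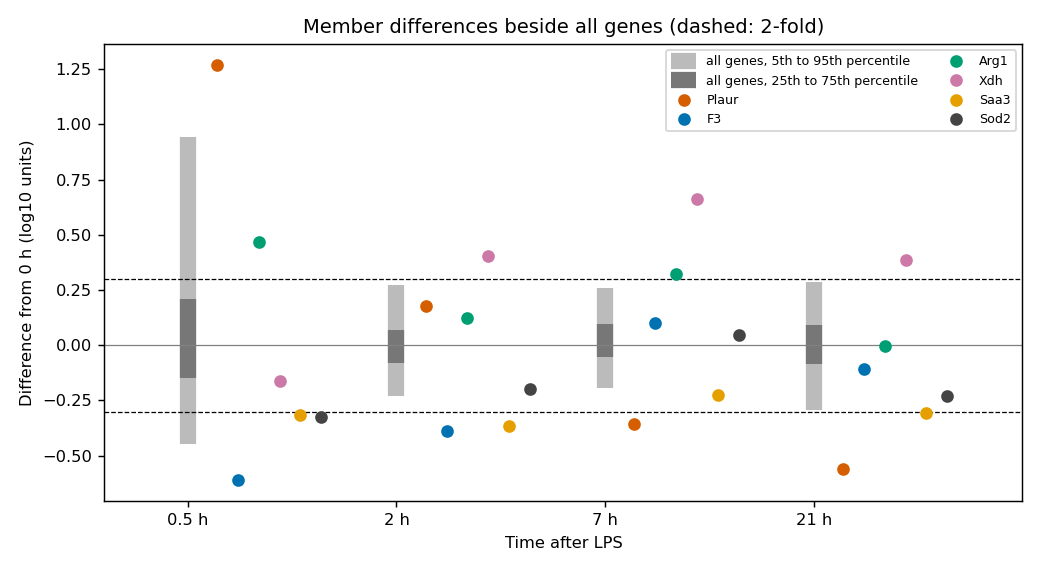
Difference of the centred log10 ratio from 0 h (y axis) at 0.5, 2, 7 and 21 h (x axis) for the 6 genes (coloured points) beside all 8452 genes (light bar from the 5th to the 95th percentile, dark bar from the 25th to the 75th), with dashed lines at 2-fold. Xdh lies above the upper line at 2, 7 and 21 h (0.40, 0.66 and 0.39) and Plaur below the lower line at 7 and 21 h (-0.36 and -0.56); at 0.5 h, where Plaur turns to -0.13 after quantile normalization and -1.10 with the trend removed, the bar of all genes is widest.

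Between the later arrays the genes differed in another way. From 2 to 7 h, 5 of the 6 ratios were higher and Plaur was lower, by -0.53, while 59.3% of all genes were higher. The greatest of the 5 differences was that of F3, 0.49. From 7 to 21 h all 6 were lower, by -0.33 for Arg1 to -0.081 for Saa3, and 53.9% of all genes were lower. Of these 6 differences that of Arg1 alone was past 2-fold. Over the 4 arrays without 0.5 h the range between the highest and lowest ratio was 0.74 for Plaur, 0.66 for Xdh, 0.49 for F3, 0.36 for Saa3, 0.33 for Arg1 and 0.28 for Sod2. A range at least as wide was found in 3.51% of genes for Plaur, 4.54% for Xdh and 30.1% for Sod2, where the median range of all genes was 0.20.

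**Figure D3:**
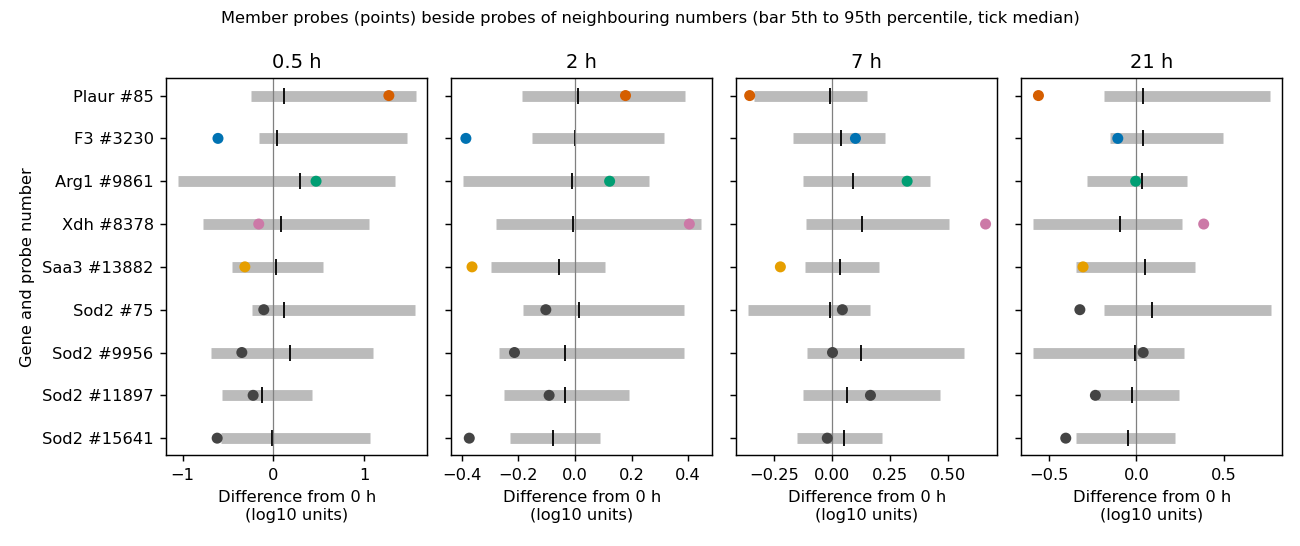
Difference from 0 h in log10 units (x axis) of each of the 9 probes (points) at 4 times (panels), beside the probes with numbers up to 50 away on either side (grey bar from the 5th to the 95th percentile, tick at the median). Xdh lies right of its bar at 7 and 21 h, Plaur left of it at 7 and 21 h, and F3 left of it at 0.5 and 2 h; x ranges differ between panels.

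The other genes of each pathway are given by count, with the members named by size of difference or by role. In plasminogen activation, 6 of 14 listed genes were measured and none was past 2-fold at 2, 7 or 21 h. Their median differences at these times were -0.11, 0.044 and -0.040. Serpinb2, an inhibitor of urokinase, differed by 0.094, 0.15 and -0.0085, and Vtn, the matrix protein vitronectin, by -0.30, -0.050 and -0.069. All 6 lay between -0.17 and 0.15 at 21 h, where Plaur was at -0.56. At 0.5 h Serpinf2, an inhibitor of plasmin, and Mrc2, an endocytic collagen receptor, were past 2-fold lower, by -0.32 and -0.64.

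In blood coagulation, 11 of 20 genes were measured, with medians of -0.13, -0.074 and -0.051 over the 3 later times. At 2 h F11, a clotting factor of the contact pathway, was past 2-fold higher by 0.33, while the fibrinogen chain genes Fga and Fgg were lower by -0.42 and -0.66 (Fgg on 2 probes, the others on 1). None was past 2-fold at 7 or 21 h. At 0.5 h F11 and the fibrinogen chain gene Fgb were past 2-fold higher, by 0.68 and 1.10, and Proc, the anticoagulant protein C, lower by -0.31. Fga and Fgg lay far below embryo on every array, as F3 did, with Fga at -1.31 at 0 h and -1.73 at 2 h.

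In purine breakdown and salvage, 11 of 19 genes were measured, with medians of 0.018, 0.11 and -0.035 over the same times. Nt5c2, a cytosolic nucleotidase, was higher by 0.39 at 7 h (mean of 2 probes) and was the only list gene past 2-fold at these times. At 0.5 h Nt5c2 and Ppat, an enzyme of purine synthesis, were past 2-fold higher, by 0.30 and 0.42. Hprt, which salvages the hypoxanthine that Xdh would oxidise, differed by -0.056, 0.24 and 0.063. At 21 h the 11 genes lay between -0.15 and 0.092, below the Xdh difference of 0.39.

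In arginine and polyamine metabolism, 10 of 17 genes were measured and none was past 2-fold at 2, 7 or 21 h, nor at 0.5 h. Sat1, which acetylates polyamines, differed by 0.26 at 21 h, the highest of these values, and Arg2, the mitochondrial arginase, by 0.18 at 2 h and -0.16 at 21 h. The list medians were 0.020, 0.013 and -0.028 at 2, 7 and 21 h.

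Of genes handling superoxide and peroxide, 19 of 25 were measured, with medians of -0.026, 0.018 and -0.0084. Nqo1, a quinone reductase, was lower by -0.36 at 21 h (3 probes), the only one past 2-fold at the later times, and by -0.49 at 0.5 h. Cyba, a subunit of the phagocyte NADPH oxidase, read 0.55 at 0 h and differed from it by -0.019, -0.054 and 0.025. Of 19 acute phase genes and regulators 3 were measured, Hpx, Apcs and Cebpd, all within 2-fold at all 4 times. Cebpd, a transcription factor of the acute phase, differed by -0.11, -0.14 and -0.15 at 2, 7 and 21 h. Hpx, the heme carrier hemopexin, differed by -0.095, 0.073 and -0.083, and Apcs, serum amyloid P, by -0.098, 0.070 and -0.047. Of 31 other inducible effectors 12 were measured, and none was past 2-fold at 2, 7 or 21 h. At 0.5 h Slpi, Retnla and Ccrl2 were past 2-fold lower, by -0.40, -0.46 and -1.10. Between 2 and 21 h their lowest and highest differences were -0.27 for Retnla, a secreted marker of alternative activation, at 7 h, and 0.23 for the gelatinase gene Mmp9, also at 7 h.

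**Figure D4:**
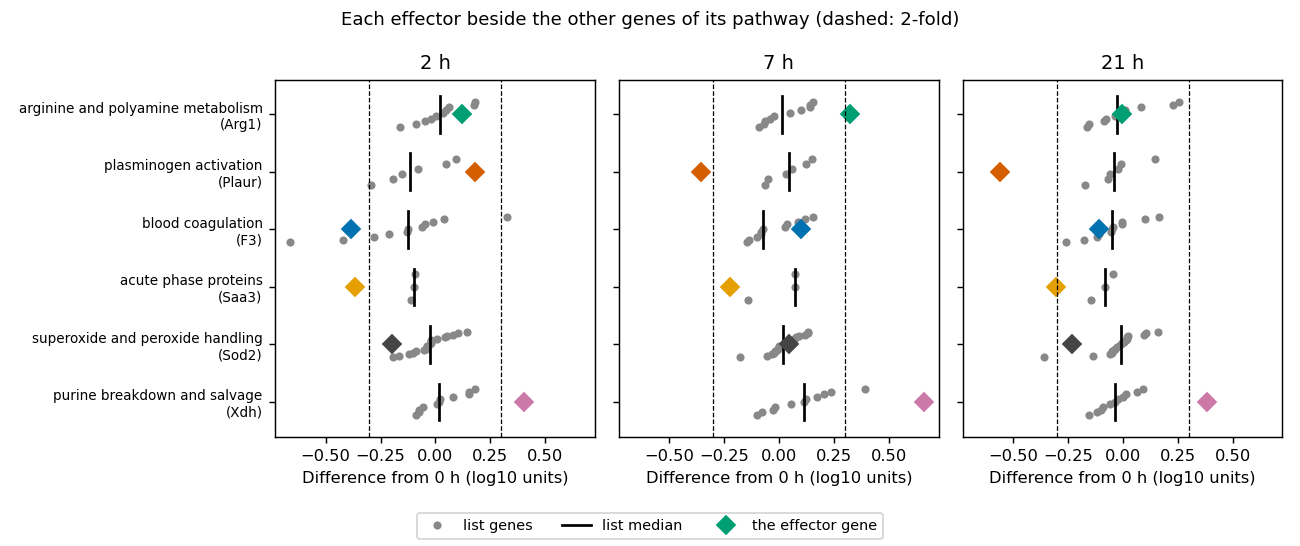
Difference from 0 h in log10 units (x axis) of the other measured genes of each pathway (grey points, black line at their median) and of the effector gene itself (diamond) at 2, 7 and 21 h, with dashed lines at 2-fold. Xdh lies right of every gene of purine breakdown at all 3 times (0.40, 0.66 and 0.39), and Plaur left of every gene of plasminogen activation at 7 and 21 h (-0.36 and -0.56).

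Markers of other cells were read on the same arrays, since RNA of a culture cannot show whether fewer cells or less RNA per cell lies behind a lower ratio. Of 6 measured neutrophil genes none was past 2-fold at 2, 7 or 21 h, with summed ratios between -0.76 and -0.084 on these arrays and -0.53 at 0 h. At 0.5 h 1 of them, Ngp, was past 2-fold higher and the sum was 0.081. Of 8 fibroblast genes, which the embryo reference holds in plenty, 6 lay past 2-fold below embryo at 0, 2, 7 and 21 h. Their summed ratio was -5.81 at 0 h and -6.74, -7.64, -5.96 and -5.07 after it. Of the 8, 3 were past 2-fold lower than 0 h at 0.5 h. Col1a1 was past it lower at 2 h (-0.77), Col3a1 lower at 7 h (-0.34) and Col1a2 higher at 21 h (0.68). The median difference of the 8 from 0 h was -0.062, -0.23, 0.0050 and 0.022 at 0.5, 2, 7 and 21 h. The F3 differences at these times were -0.61, -0.39, 0.10 and -0.11. Of 8 macrophage markers 1 was past 2-fold higher and 2 lower at 0.5 h, 3 were higher at 2 h, 1 at 7 h, Fcgr1, and none at 21 h. Their summed ratio was 5.10 at 0 h and 3.97, 6.43, 5.45 and 5.45 at the times after it. Of 3 T and B cell markers, Cd79b was past 2-fold lower at 2 h (-0.47) and Cd3d higher at 7 h (0.54). Tpsb2, of 3 mast cell markers, and Hbb-bh1, of 6 erythroid markers, were past it lower at 2 h (-0.36 and -0.37). At 0.5 h Cd3d, 1 dendritic cell and 2 erythroid markers were past it higher, and Cd79b and 1 mast cell marker lower. The 2 dendritic cell markers were within 2-fold later. The part of such shifts in the 6 genes was not tested.

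The genes of most similar course were ranked by the root mean square difference of centred log ratios over the 5 arrays. For Sod2 these were Klk10 (0.016), H1f2 (0.028) and Lypd3 (0.032), and 229 genes lay within 0.1 of it. For Saa3 they were Rpf2 (0.048), Akap8l and Cep83, with 39 genes within 0.1, for F3 Rasl11b (0.069), Rai2 and Ankle2, with 3, and for Arg1 Crybb1 (0.077), Abl1 and Suclg1, with 13. No gene lay within 0.1 of Plaur or Xdh. The nearest to Plaur were Gsap (0.20), Ftmt and Parp9, and to Xdh Syncrip (0.14), Slc48a1 and Zfp120. Without the 0.5 h array the 3 nearest genes were all others for Arg1, Plaur, F3 and Saa3, and 1 stayed for Sod2 (Klk10) and 1 for Xdh (Slc48a1). Between the 6 genes themselves the closest pair was Saa3 and Sod2, 0.15 apart, and the most distant Plaur and F3, 1.94 apart.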

How the data were processed

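The authors deposited 1 log ratio per probe and array, read here as log10 of macrophage over embryo; the sources used here do not give scanner, background correction, normalization, log base or numerator. Per the labels, amino-allyl labelling with Cy3 was used. The platform annotation gave 1 symbol for 14759 of 19828 probes, several for 170 and none for 4899; 14628 were updated through Entrez identifiers (RefSeq, GRCm38.p6). Between 154 and 1104 values were missing per array, and the deposited medians were 0.0013 to 0.075. Signal over background is unknown, and precision is limited by the number of arrays.

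Probes with a value on all 5 arrays were averaged per gene, and the median of the resulting 8452 genes was subtracted on each array. The steps were run on copies of the 0 h array with known shifts and no noise, which checks the arithmetic alone. With 1 array per group no test was run. Alternatives changed the centring, scaling, trend removal, joining of probes, missing-value filter, baseline array, fold and log base; the running median and leaving out each Sod2 probe were added after seeing the data. Members and lists were chosen with earlier results of these data known. Genes were named by rule: the members, the 3 of most similar course, and up to 3 list genes past 2-fold, otherwise the highest and lowest. Arg2, Cyba, Hprt, Hpx, Apcs, Cebpd, Afp, the other list genes named for 0.5 h alone and the marker genes named were chosen after their values were seen. Python 3.11.15, numpy 2.4.6, pandas 2.3.3, statsmodels 0.14.6 and matplotlib 3.10.9 were used.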

Additional observations from a re-analysis of the deposited data

How the results depend on the processing

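Among recomputed differences of the 6 genes from 0 h, 204 moved by less than the pooled SD between probes, 35 moved by more, and 5 that were past 2-fold changed sign. For all genes but Sod2, joining probes and filtering could act only through the array median. Such settings are no separate check, here or for the levels below. At 0.5 h the pooled SD, 0.48, exceeded the 2-fold size of 0.301, so a call lost at that time could still count among the 204. At 0.5 h Plaur turned to -0.13 under quantile normalization and -1.10 after removal of a lowess trend against the mean ratio, and with arrays scaled to one median absolute deviation it was 0.33 and F3 -0.066. At 2 h F3 was -0.16, -0.21 and -0.18 under the same 3 settings in that order. Against the 0.5 h array F3 at 2 h was 0.22, Saa3 at 2 h -0.050, Arg1 at 7 h -0.15, Plaur at 7 h -1.63, Xdh at 7 h 0.82, Plaur at 21 h -1.83 and Saa3 at 21 h 0.0090. Against the mean of the 0 h and 0.5 h arrays F3 at 2 h was -0.081, Arg1 at 7 h 0.089, and Plaur -0.99 at 7 h and -1.20 at 21 h. Plaur at 7 h was -0.73 after quantile normalization and -0.52 with the trend removed, and at 21 h -0.90 after quantile normalization.

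Read as log2, 1 of the 6 genes was past 2-fold higher at 0.5 h, beside 384 of the 8452 genes. In any other direction or time 0 of the 6 were past it, beside 3 to 50 of all genes. At 3-fold 1 was higher and 1 lower at 0.5 h, 0 and 0 at 2 h, 1 and 0 at 7 h, and 0 and 1 at 21 h. Over all genes at 3-fold, 1149 were higher and 381 lower at 0.5 h, and 135 and 65 at 2 h. At 7 h 114 were higher and 28 lower, and at 21 h 120 and 115. Brackets below give the count of all genes under the same setting. At 1.5-fold 2 of the 6 were higher (830) and 3 lower (735) at 2 h, 2 were lower (509) at 7 h and 3 (963) at 21 h. At 2-fold, 1 was higher at 0.5 h after quantile normalization (1071) or trend removal (874), and 1 was lower without centring (739) or with scaling (492). At 2 h 1 was lower after quantile normalization (265), scaling (124), trend removal (154) or with the mean baseline (876). At 7 h 1 was higher without centring (245) or with the running median removed (236), a setting chosen after seeing the data. Also at 7 h, 2 were lower after quantile normalization (379) and 3 higher against the 0.5 h array (1247). At 21 h 2 were higher against the 0.5 h array (1016) and 1 lower against the mean baseline (1071). Among recomputed levels 206 moved by less than the SD between probes and 4 by more. Counts over all genes ranged widely, for example from 19 to 830 higher at 2 h (358 as reported), the lowest with values read as log2. No paired analysis was possible because each group held 1 array and no test was run.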
